A study of Mus musculus with 33 samples.

Results

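The genes described here are 9 inflammatory chemokines, Ccl2, Ccl5, Ccl7, Ccl8, Ccl9, Ccl11, Ccl12, Cxcl9 and Cxcl10, and 1 chemokine receptor, Cxcr3. They were taken by symbol: every probe set annotated to these 10 genes was used, 12 of the 45037 probe sets on the array. Ccl9 and Cxcl9 had 2 probe sets each, and the other genes had 1 each. RNA from the thymus of C57bl6/J male mice aged 4 to 6 weeks was hybridised to 33 Affymetrix arrays, and no group carried a genetic change or a treatment. Tissue was microdissected as whole medulla (n = 7 arrays), whole cortex (n = 7), and the subcapsular, central and perimedullary subregions of the cortex (n = 3 each). Thymocytes were sorted as medullary thymocytes (CD3hi CD45+, n = 5) and cortical thymocytes (CD3-/lo, CD45+, and positive for CD90 or CD117, n = 5). The titles call the arrays of a group biological replicates but tie no region to an animal, so some arrays may share an animal and the p-values may then be too small. Dissected tissue holds thymocytes and stroma together, so in these bulk samples fewer cells of a type and less RNA per cell cannot be told apart. Tissue and sorted cells also went through different RNA kits, and where tissue is compared with sorted cells the kit and the material cannot be told apart.

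Chemokines are small secreted proteins that direct leukocyte migration through G protein-coupled receptors. Ccl2, Ccl7 and Ccl12 act on CCR2 and draw monocytes. Mouse Ccl8 acts on CCR8. Ccl11, the eotaxin, acts on CCR3 and draws eosinophils, while Ccl5 acts on CCR1 and CCR3 and Ccl9 on CCR1. Cxcl9, induced by interferon-gamma, and Cxcl10, induced by interferons more widely, act on CXCR3, which is carried by activated and type 1 T cells, natural killer cells and natural killer T cells. In the thymus, chemokines guide thymocytes between the cortex, where they rearrange and test their antigen receptors, and the medulla, where self-reactive cells are removed.

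In RefSeq's GRCm38.p6 annotation, Ccl2, Ccl7, Ccl11, Ccl12 and Ccl8 follow each other on chromosome 11 with no other protein-coding gene between them. Other kinds of gene were not looked at. Among protein-coding genes, Ccl5 and Ccl9 are direct neighbours elsewhere on chromosome 11. Cxcl9 and Cxcl10 lie on chromosome 5 with Art3 between them, and Cxcr3 is on chromosome X. RefSeq promoter entries matched 6 of the 10 genes, and Ccl2, Ccl5, Ccl7 and Ccl11 had none. The 250 bases before the start site are printed for 2 pairs, Cxcl9 with Cxcl10 and Ccl12 with Ccl8, because each pair lies close in the genome, and the cortical levels of Cxcl9 and Cxcl10 differ in pattern where those of Ccl12 and Ccl8 share one. The windows are chr5:92328080-92328329 on the minus strand for Cxcl9, chr5:92348890-92349139 on the minus strand for Cxcl10, chr11:82101595-82101844 on the plus strand for Ccl12 and chr11:82114935-82115184 on the plus strand for Ccl8. Capitals mark matches on either strand to 4 motifs: an interferon-stimulated response element (GAAA, any 2 bases, GAAA), a kappaB site (GGG, any 5 bases, CC), a gamma-activated site (TTCNNNGAA) and a TATA box (TATAAA).
Cxcl9: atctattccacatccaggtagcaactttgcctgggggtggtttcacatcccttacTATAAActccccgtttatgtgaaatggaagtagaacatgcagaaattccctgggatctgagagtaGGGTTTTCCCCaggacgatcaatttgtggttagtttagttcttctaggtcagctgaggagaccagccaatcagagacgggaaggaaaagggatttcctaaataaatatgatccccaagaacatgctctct
Cxcl10: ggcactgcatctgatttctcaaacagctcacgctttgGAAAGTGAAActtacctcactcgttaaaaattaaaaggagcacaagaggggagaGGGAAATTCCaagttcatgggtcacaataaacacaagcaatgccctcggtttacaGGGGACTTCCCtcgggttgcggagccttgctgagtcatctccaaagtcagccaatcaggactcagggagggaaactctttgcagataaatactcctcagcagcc
Ccl12: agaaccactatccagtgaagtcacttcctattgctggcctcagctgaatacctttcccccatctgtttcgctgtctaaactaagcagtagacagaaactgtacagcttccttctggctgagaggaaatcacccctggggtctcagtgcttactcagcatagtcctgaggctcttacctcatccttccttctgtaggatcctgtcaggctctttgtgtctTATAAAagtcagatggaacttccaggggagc
Ccl8: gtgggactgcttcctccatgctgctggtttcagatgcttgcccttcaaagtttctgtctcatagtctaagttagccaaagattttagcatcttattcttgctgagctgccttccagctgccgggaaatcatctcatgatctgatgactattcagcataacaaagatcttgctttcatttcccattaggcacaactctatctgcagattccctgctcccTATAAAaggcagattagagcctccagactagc
The Cxcl10 window held a response element match 213 to 204 bases upstream and kappaB matches at 159 to 150, 104 to 95 and 103 to 94 bases upstream, the last pair overlapping. The Cxcl9 window held overlapping kappaB matches at 130 to 121 and 129 to 120 bases upstream and TATAAA 195 to 190 bases upstream. In Ccl12 and Ccl8 the match was TATAAA, at 31 to 26 and 32 to 27 bases upstream. None of the 4 windows held the gamma-activated site. Of all 32851 such mouse windows, 2.98% held the response element, 45.8% the kappaB site, 7.02% the gamma-activated site and 12.4% TATAAA, so the matches are letters in a window and not shown sites.

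Levels are given as the deposited array signal on a linear scale. Array medians ran from 128 to 163 in whole medulla, above those of all other groups, which ran from 71.9 to 118. The main fit added no normalization between arrays. Signal is compared between groups for the same probe set and never between probe sets. In 13 arrays (5 of whole medulla, 5 of whole cortex and 3 of medullary thymocytes) the brightest 0.1% of signals began above 42000, which they did in none of the other 20, and calls gained or lost without those 13 are given beside the result. Differences are log2 fold changes of signal plus 26.2 from limma across all 33 arrays, with p-values adjusted over the 13463 genes that passed a filter on low signal. A gene is called higher or lower at an adjusted p below 0.05 and a log2 fold change of at least 1 in size. Of the 10 genes, 9 passed the filter, which asks for a signal above the array median in at least 3 arrays, and Ccl7 did not. Cxcl9 and Ccl11 are the 2 genes that passed only through whole medulla, where they are high.

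**Figure D1:**
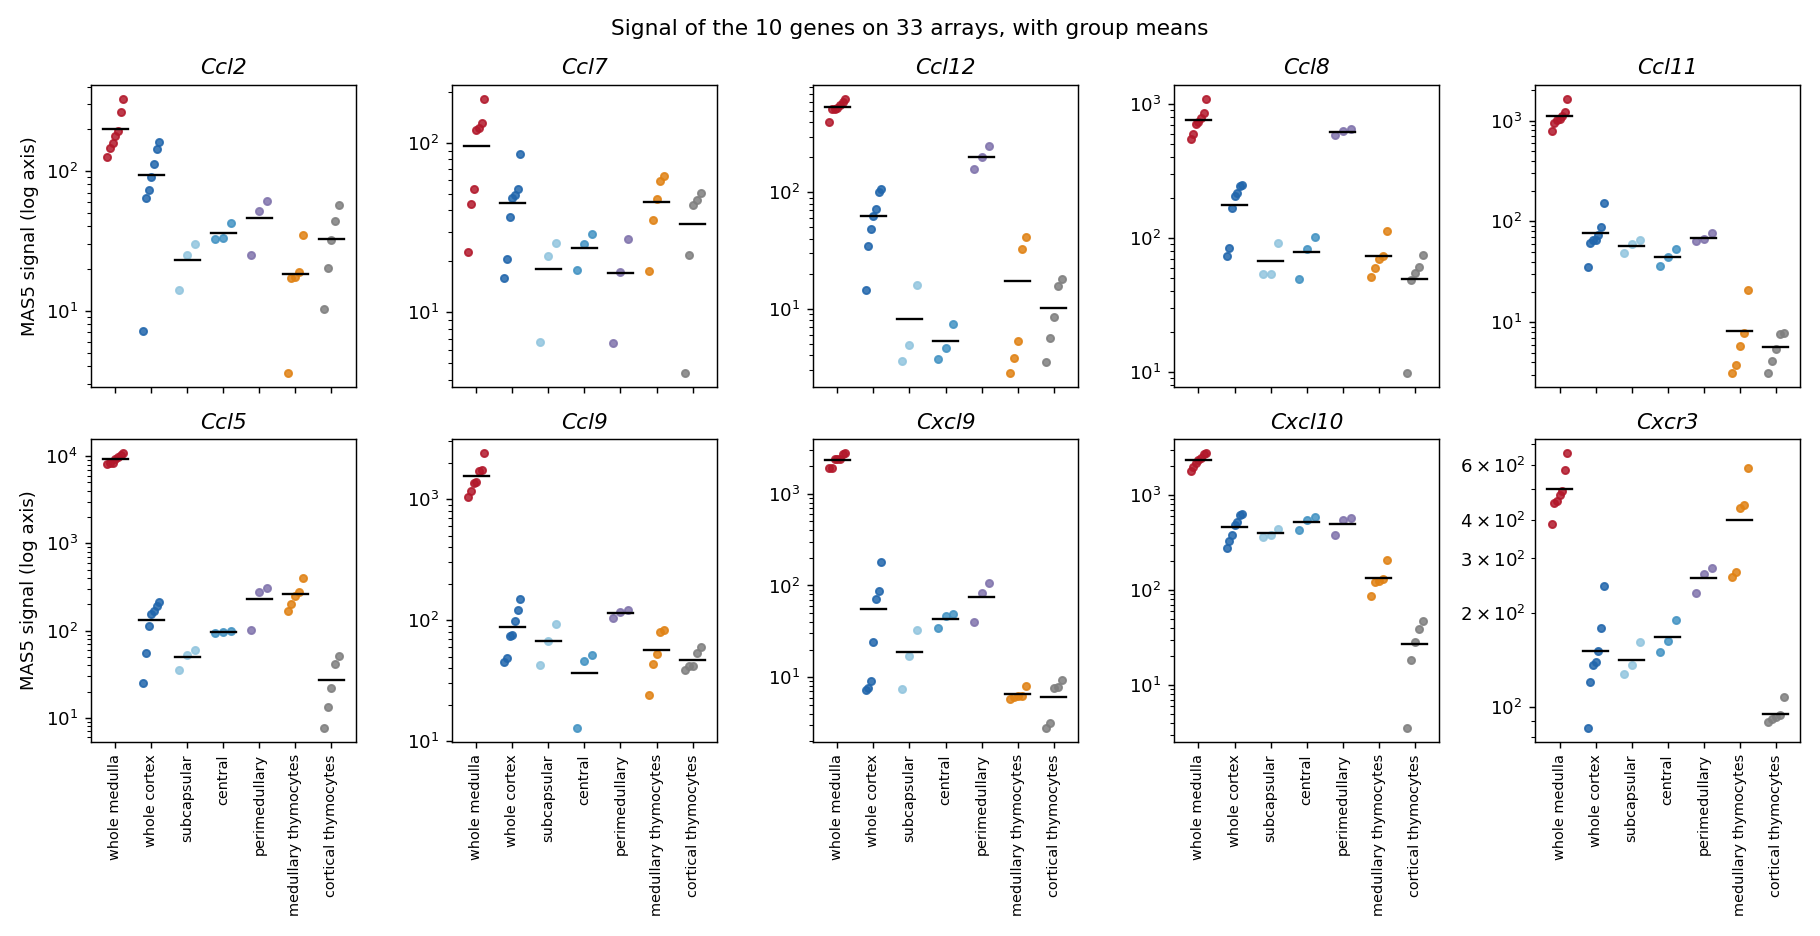
Signal of the 10 genes in each of the 33 arrays, on a log axis, by group; each point is an array and each bar is the group mean. Ccl5, Cxcl9, Ccl9 and Ccl11 stand far higher in whole medulla than in any other group. Ccl8 and Ccl12 are also high in perimedullary cortex, and Cxcr3 is high in sorted medullary thymocytes.

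Whole medulla was set against whole cortex to ask which of these genes differ between the compartments of the thymus. All 9 tested genes were higher in whole medulla, with a median log2 fold change of 2.76 beside 0.11 for all genes tested. Over all genes tested, 18.7% were called higher and 5.39% lower. Because the filter admitted Cxcl9 and Ccl11 through the medulla itself, the count is a description of the genes that passed and not of all 10. With no filter, 9 genes were called higher and Ccl7 was not.

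Among the ligands of CCR2, Ccl12 had signals of 401 at the lowest, 534 at the median and 638 at the highest in whole medulla, against 14.6, 62.9 and 107 in whole cortex. No array of one compartment reached the other, and Ccl12 rose by 2.76 ± 0.23 on the log2 scale (standard error, here and for each log2 value; adjusted p = 8.9e-13 by limma). Ccl2 ranged over 125, 178 and 329 in whole medulla, against 7.17, 90.01 and 160.3 in whole cortex. The Ccl2 ranges overlapped. Its log2 fold change of 1.02 ± 0.28 (adjusted p = 0.00167 by limma) stood at the fold limit, and the call was lost without replicate 3 of whole cortex (0.75), replicate 7 of whole cortex (0.98), replicate 1 of whole medulla (0.90) or replicate 7 of whole medulla (0.95). It was also lost with an offset of 105 in place of 26.2 (0.63), quantile normalization (0.75) or array weights (0.80), and without the 13 bright-tailed arrays (0.99). Ccl7 ranged over 22.8, 119 and 182 in whole medulla and 16.0, 47.5 and 86.0 in whole cortex. These groups overlapped, and Ccl7 exceeded the array median on 2 whole medulla arrays and on no array of any other group. Fitted without the filter, Ccl7 had a log2 fold change of 0.71 ± 0.28, below the fold limit (adjusted p = 0.0386 by limma).

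Ccl8, the protein-coding gene next to Ccl12, had 553, 732 and 1099.9 in whole medulla, against 73.5, 204 and 250.5 in whole cortex. The 2 groups did not overlap, and the log2 fold change was 2.02 ± 0.23 (adjusted p = 1.2e-09 by limma). Ccl11 had 789.8, 1049 and 1650.3 in whole medulla, against 35.5, 66.0 and 152 in whole cortex. All medulla arrays lay above all cortex arrays, and Ccl11 rose by 3.49 ± 0.18 on the log2 scale (adjusted p = 3.2e-18 by limma).

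Ccl5 had the largest log2 fold change of the 9 tested genes in this comparison. It had 8229.6, 9218 and 10845 in whole medulla, against 24.8, 155 and 215 in whole cortex. The group means differed 70.6-fold in signal, with no overlap, and the log2 fold change was 6.05 ± 0.26 (adjusted p = 1.0e-20 by limma). Ccl9, by the brighter of its 2 probe sets, had 1044, 1379.8 and 2406 in whole medulla, against 44.7, 75.9 and 149.9 in whole cortex. It did not overlap between compartments and rose by 3.81 ± 0.21 on the log2 scale (adjusted p = 2.0e-17 by limma). Its other probe set gave 341 ± 117 in whole medulla and 33.4 ± 25.7 in whole cortex (SD, n = 7 each), a log2 fold change of 2.67.

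Of the CXCR3 ligands, Cxcl9 had 1887, 2414 and 2773 in whole medulla, against 7.21, 24.3 and 182 in whole cortex. Its log2 fold change was 5.19 ± 0.28 (adjusted p = 6.2e-18 by limma). Its other probe set gave 510.0 ± 95.9 in whole medulla and 44.9 ± 39.0 in whole cortex (SD, n = 7 each), a smaller log2 fold change of 3.07. In whole cortex the 2 probe sets did not rank the arrays alike: replicate 5 had the highest signal by one (182) and the lowest by the other (2.44). Cxcl10 had 1788, 2323 and 2754 in whole medulla, against 276, 479 and 628 in whole cortex. It did not overlap between compartments, but every whole cortex array lay above its own array median, and the rise was 2.30 ± 0.18 on the log2 scale (adjusted p = 2.1e-13 by limma). Their receptor Cxcr3 had 387, 479 and 653 in whole medulla, against 85.9, 139 and 245 in whole cortex. The ranges were apart and Cxcr3 rose by 1.60 ± 0.16 on the log2 scale (adjusted p = 1.3e-10 by limma).

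**Figure D2:**
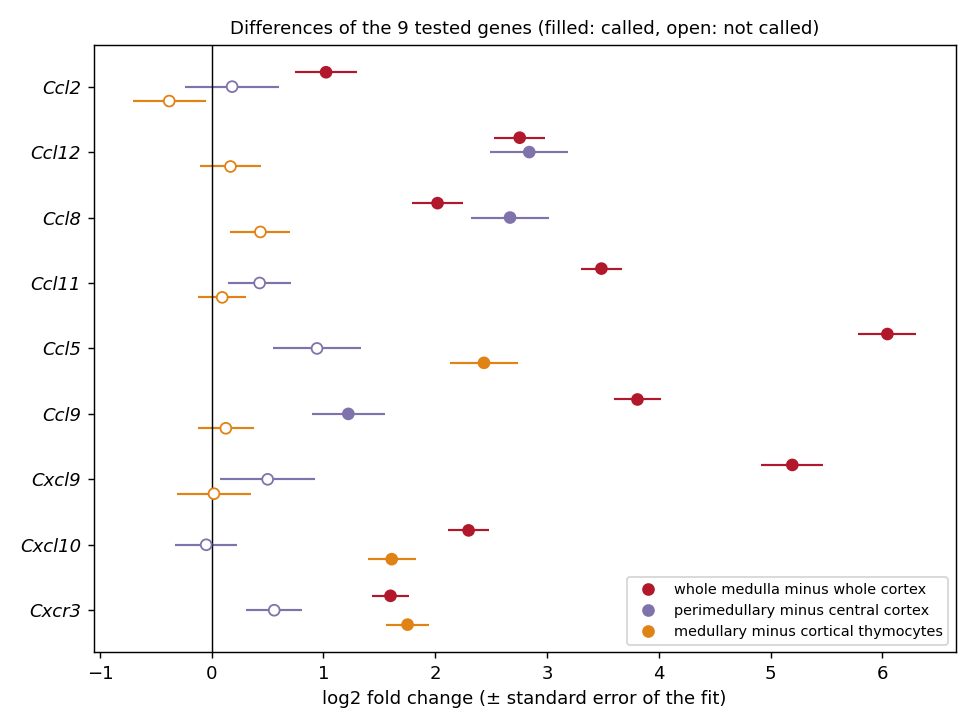
Log2 fold change with its standard error for the 9 tested genes in 3 comparisons; filled points passed the call and open points did not. All 9 are higher in whole medulla than in whole cortex, 3 are higher in perimedullary than in central cortex, and 3 are higher in medullary than in cortical thymocytes.

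The sorted thymocytes show which of these differences were also found in lymphoid cells. In medullary against cortical thymocytes, Ccl5, Cxcr3 and Cxcl10 rose and 6 genes were not called, where 7.69% of all genes tested were called higher and 6.31% lower. Ccl5 had 166, 203, 249, 276 and 403 in medullary thymocytes, against 7.69, 13.2, 21.8, 41.8 and 51.5 in cortical thymocytes. All 5 medullary arrays were above all 5 cortical arrays, and the log2 fold change was 2.44 ± 0.31 (adjusted p = 2.8e-08 by limma). Cxcr3 had 261, 272, 436, 445 and 583 in medullary thymocytes, against 89.5, 91.4, 93.2, 94.7 and 107 in cortical thymocytes. The medullary arrays spread widely and the cortical arrays lay close together, with no overlap and a log2 fold change of 1.75 ± 0.19 (adjusted p = 1.5e-09 by limma). Cxcl10 had 86.7, 122, 123, 131 and 205 in medullary thymocytes, against 3.54, 18.1, 28.4, 38.4 and 47.1 in cortical thymocytes. It rose by 1.61 ± 0.21 on the log2 scale (adjusted p = 9.0e-08 by limma), a call lost with an offset of 105 in place of 26.2, at 0.85.

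Cxcl9, the other interferon-induced CXCR3 ligand, had 5.77 to 8.07 in medullary thymocytes and 2.81 to 9.23 in cortical thymocytes. These ranges overlapped at the dim end of the arrays, with a log2 fold change of 0.02 and a 95% interval of -0.65 to 0.69. Ccl8, Ccl12, Ccl9, Ccl11 and Ccl2 were not called either, with log2 fold changes from -0.38 for Ccl2 to 0.44 for Ccl8.

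The compartment difference in tissue was then set against that in sorted thymocytes by an interaction term in the same fit. The tissue difference was larger for 7 of the 9 genes, where 12.8% of all genes tested were called higher and 2.22% lower. These 7 include Cxcl9 and Ccl11, which the filter admitted only through whole medulla, so this count too is a description. It exceeded the thymocyte difference by 5.17 ± 0.43 for Cxcl9, 3.68 ± 0.33 for Ccl9, 3.61 ± 0.40 for Ccl5, 3.39 ± 0.28 for Ccl11 and 2.59 ± 0.36 for Ccl12 on the log2 scale, with adjusted p at most 4.6e-07 by limma. By the other Cxcl9 probe set the excess was 2.99. For Ccl8 the excess was 1.58 ± 0.35 (adjusted p = 0.00057 by limma). For Ccl2 it was 1.40 ± 0.43 (adjusted p = 0.0108 by limma). That call was lost with the offset of 105 (0.79) and without the 13 bright-tailed arrays (1.13, adjusted p = 0.10). Cxcr3 was not called, at -0.15 with a 95% interval of -0.67 to 0.36. Cxcl10 was not called at 0.69, with a 95% interval of 0.12 to 1.26 and adjusted p = 0.059 by limma, but was called with the offset of 105, at 1.27.

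Tissue was also set against the sorted cells of the same compartment. In whole medulla against medullary thymocytes, 8 of 9 genes were higher, where 19.5% of all genes tested were called higher and 1.23% lower. The 8 again include Cxcl9 and Ccl11, which passed the filter only through whole medulla, and the count is a description. The differences ran from 2.31 ± 0.30 for Ccl2 to 6.17 ± 0.31 for Cxcl9 on the log2 scale (3.41 by the other Cxcl9 probe set), and Ccl5, although present in the sorted cells, was 5.07 ± 0.28 higher in the tissue. Cxcr3 was the exception: its tissue arrays (387 to 653) and sorted arrays (261 to 583) overlapped, with a log2 fold change of 0.35 and a 95% interval of -0.01 to 0.71.

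In whole cortex against cortical thymocytes, 6 genes were higher, where 9.64% of all genes tested were called higher and 1.52% lower. Cxcl10 led them by 3.20 ± 0.20 on the log2 scale (adjusted p = 8.5e-16 by limma), followed by Ccl11 at 1.64 ± 0.20, Ccl5 at 1.46 ± 0.28, Ccl8 at 1.41 ± 0.25, Ccl12 at 1.21 ± 0.25 and Cxcl9 at 1.0 ± 0.31. With the offset of 105, Cxcl10 was the 1 gene still called. The Ccl12 call was also lost with quantile normalization (0.97), with the bright-tail class as a block (0.89) and without the 13 bright-tailed arrays (0.61, adjusted p = 0.089 by limma). The Cxcl9 call was also lost in each of those settings, at 0.89, 0.82 and 0.36 (adjusted p = 0.33 by limma without the 13 arrays). It was lost too with the mean of its probe sets (0.71), array weights (0.92) or only the groups compared in the fit (adjusted p = 0.076 by limma). It was further lost without replicate 3, 4 or 5 of whole cortex, with values of 0.87, 0.90 and 0.72, and without replicate 1 or 5 of cortical thymocytes, at 0.96 and 0.97. Ccl2 was not called at 0.91, and was called without replicate 3 of whole cortex (1.19) or replicate 2 of cortical thymocytes (1.05). It was also called with an offset of 6.55 (1.19), array weights (1.07) or the bright-tail class as a block (1.04).

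The 3 cortical subregions give the order of each gene from the capsule inwards. Between subcapsular and central cortex, 0 of the 9 genes were called, where 0.876% of all genes tested were called higher in subcapsular cortex and 0.446% lower. The log2 fold changes of subcapsular against central cortex ran from -0.71 for Ccl5 to 0.61 for Ccl9, and no gene had an unadjusted p below 0.05 in limma. In perimedullary against central cortex, Ccl12, Ccl8 and Ccl9 rose, where 1.34% of all genes tested were called higher and 0.0371% lower.

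Ccl12 had 3.59, 4.91 and 16.1 in subcapsular cortex, 3.70, 4.60 and 7.43 in central cortex and 157, 199.7 and 249 in perimedullary cortex. It was near the dimmest signals of the array in the outer and central cortex and above the array median on all 3 perimedullary arrays, with no overlap. Its log2 fold change was 2.84 ± 0.35 against central cortex (adjusted p = 7.9e-07 by limma) and 2.73 ± 0.35 against subcapsular cortex. Ccl8 had 54.1, 54.2 and 92.1 in subcapsular cortex, 49.8, 83.4 and 102 in central cortex and 593, 631 and 652 in perimedullary cortex. The perimedullary mean was 7.96-fold the central mean in signal, with no overlap, and the log2 fold change was 2.67 ± 0.35 against central cortex (adjusted p = 1.9e-06 by limma) and 2.83 ± 0.35 against subcapsular cortex.

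Ccl9 had 43.0, 67.4 and 92.2 in subcapsular cortex, 12.9, 45.7 and 51.1 in central cortex and 104, 117 and 122 in perimedullary cortex. Its log2 fold change against central cortex was 1.22 ± 0.33 (adjusted p = 0.031 by limma). The call was lost without replicate 1 of central cortex (0.91, adjusted p = 0.30) and without replicate 1, 2 or 3 of perimedullary cortex (adjusted p = 0.081, 0.12 and 0.10). It was also lost with the offset of 105 (0.64), quantile normalization (1.08, adjusted p = 0.12 by limma) or the mean of the Ccl9 probe sets (0.29). The other Ccl9 probe set went the opposite way, at 1.86, 2.73 and 3.26 in perimedullary cortex against 15.0, 18.9 and 23.0 in central cortex, so the direction of Ccl9 at this border is uncertain.

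The other genes were not called between perimedullary and central cortex. Ccl5 had 35.4, 53.0 and 59.7 in subcapsular cortex, 93.4, 95.5 and 99.5 in central cortex and 102, 275 and 310.4 in perimedullary cortex. The groups did not overlap, in that order, and Ccl5 was called higher in perimedullary than in subcapsular cortex, at 1.65 ± 0.40 on the log2 scale (adjusted p = 0.0028 by limma). In that comparison Ccl8, Ccl12 and Ccl5 were called, where 2.94% of all genes tested were called higher and 1.66% lower. Cxcl9 had 7.36, 16.8 and 32.98 in subcapsular cortex, 34.5, 46.1 and 48.7 in central cortex and 39.6, 81.8 and 105 in perimedullary cortex. Perimedullary and central arrays overlapped, and the perimedullary minus subcapsular difference of 1.15 ± 0.43 was not called (adjusted p = 0.062 by limma), though it was called without replicate 2 of perimedullary cortex (1.43, adjusted p = 0.042). It was also called under a stricter filter (adjusted p = 0.047), with only the groups compared in the fit (0.022), with array weights (0.0012) and without the 13 bright-tailed arrays (0.0021). By the other Cxcl9 probe set the difference was 0.59 and not called. Cxcr3 had 128, 136 and 162 in subcapsular cortex, 150.4, 163 and 191 in central cortex and 233, 267 and 279 in perimedullary cortex. Its perimedullary arrays were the highest, and its difference from subcapsular cortex of 0.77 ± 0.25 was below the fold limit (adjusted p = 0.030 by limma).

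Cxcl10 showed no such order. It had 358, 382 and 439 in subcapsular cortex, 423, 539 and 582 in central cortex and 381, 549 and 570.1 in perimedullary cortex. All 3 subregions overlapped, and the perimedullary minus central log2 fold change was -0.05, with a 95% interval of -0.61 to 0.51. Ccl11 had 48.2, 59.4 and 64.9 in subcapsular cortex, 36.3, 44.7 and 52.8 in central cortex and 63.8, 66.5 and 76.4 in perimedullary cortex. All of these lay below the array median, and the perimedullary minus central difference was 0.43, with a 95% interval of -0.14 to 1.0. Ccl2 differed by 0.18 and was below the array median on all 9 subregion arrays.

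Whole medulla against perimedullary cortex shows how far each gene was from its medullary level at the border. Of the 9 genes, 7 were higher in whole medulla, where 20.2% of all genes tested were called higher and 9.09% lower. Cxcl9 and Ccl11, among these 7, passed the filter only through whole medulla, so the count is a description. Ccl5 was higher by 5.30 ± 0.33, Cxcl9 by 4.59 ± 0.36 (2.36 by its other probe set), Ccl11 by 3.54 ± 0.24, Ccl9 by 3.44 ± 0.28, Cxcl10 by 2.15 ± 0.23, Ccl2 by 1.62 ± 0.36 and Ccl12 by 1.32 ± 0.30 on the log2 scale, each with adjusted p at most 0.00025 by limma. The Ccl2 call was lost with the offset of 105 (0.98). Cxcr3 differed by 0.87 ± 0.21, below the fold limit (adjusted p = 0.0006 by limma). For Ccl8, the 553 to 1099.9 of whole medulla enclosed the 593 to 652 of perimedullary cortex, and the log2 fold change of whole medulla over perimedullary cortex was 0.25, with a 95% interval of -0.35 to 0.84.

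A comparison chosen after these values were seen set the perimedullary step against the medullary step, for each gene in the same fit. The first runs from central to perimedullary cortex, the second from whole cortex to whole medulla. Their starting points differ, since whole cortex takes in the perimedullary subregion. Whole cortex averaged 178 for Ccl8 and 62.8 for Ccl12, against 78.5 and 5.24 in central cortex. A gene high at the border thus has a smaller medullary step. The perimedullary step was smaller for 6 of the 9 genes, where 13.0% of all genes tested were called lower and 3.78% higher. Cxcl9 and Ccl11, among these 6, passed the filter only through whole medulla, so the count is a description. The perimedullary minus medullary step was -5.10 ± 0.47 for Ccl5, -4.69 ± 0.51 for Cxcl9 (-2.42 by its other probe set), -3.06 ± 0.33 for Ccl11, -2.59 ± 0.39 for Ccl9, -2.35 ± 0.33 for Cxcl10 and -1.04 ± 0.30 for Cxcr3 on the log2 scale. The Cxcr3 call (adjusted p = 0.0073 by limma) was lost without replicate 3 of central cortex (-0.96) or replicate 1 of perimedullary cortex (-0.97). It was lost too without replicate 6 of whole cortex (-0.94) or replicate 4 of whole medulla (-0.98), and with the offset of 105 (-0.83) or array weights (-0.94). Ccl8 and Ccl12 were not called: the perimedullary minus medullary step was 0.65 for Ccl8, with a 95% interval of -0.19 to 1.49, and 0.09 for Ccl12, with a 95% interval of -0.76 to 0.94. Without the 13 bright-tailed arrays these became 0.32 for Ccl8 and -0.61 for Ccl12, neither called. Neither gene is thereby shown to have equal steps. In mean signal, the perimedullary excess over central cortex was 79.9% of the medullary excess over central cortex for Ccl8 and 36.8% for Ccl12. Ccl11, which lies between Ccl7 and Ccl12 in the genome, was among the 6 genes called, and the difference between it and its neighbours was not tested.

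**Figure D3:**
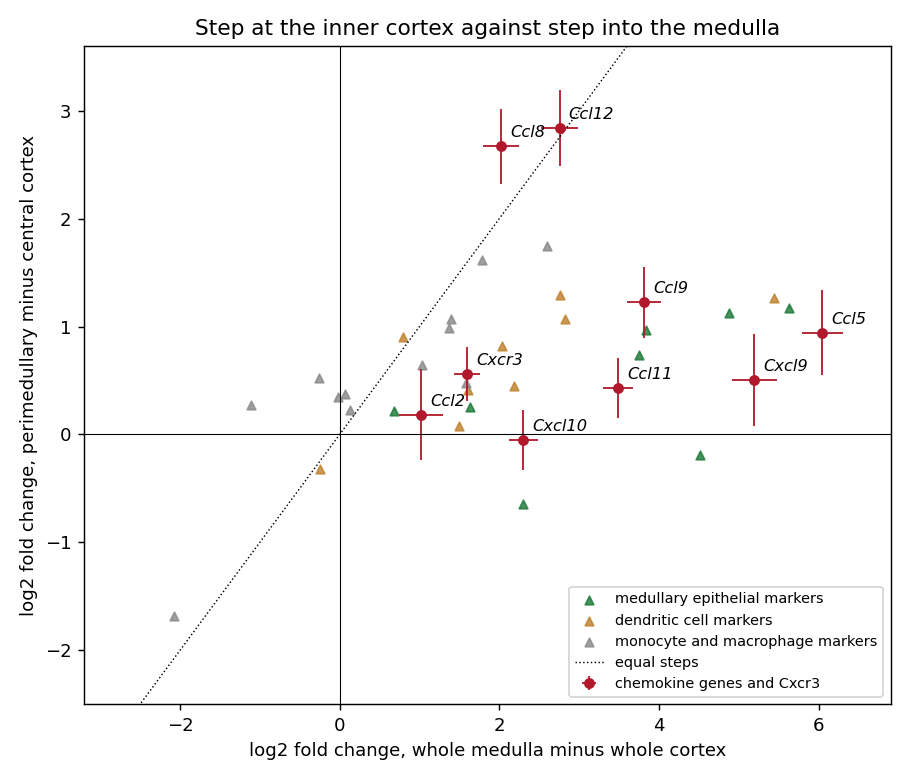
Perimedullary minus central log2 fold change against whole medulla minus whole cortex log2 fold change for the 9 tested genes and for markers of medullary epithelium, dendritic cells, and monocytes and macrophages; the dotted line marks equal steps. Ccl8 and Ccl12 lie near or above the line, and Ccl5, Cxcl9, Ccl11 and Cxcl10 lie far below it.

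Markers of other cells also moved at the border where Ccl8 and Ccl12 rose. Of the monocyte and macrophage list, 3 of 12 tested genes were higher in perimedullary than in central cortex: Lyz2 (1.75), Cx3cr1 (1.62) and Csf1r, the colony stimulating factor receptor (1.07). The scavenger receptor Cd163 was lower, at -1.69. The summed signal of that list was 18877 to 21039 in perimedullary cortex, against 9798 to 12231 in central cortex, and Csf1r averaged 6762 ± 757 in perimedullary cortex and 3214 ± 519 in central cortex (SD, n = 3 each). All 4 tested mature thymocyte markers were higher, as were 2 of 9 dendritic cell markers, 1 of 4 B cell markers, 1 of 10 fibroblast markers, 1 of 7 endothelial markers, 2 of 10 innate-like lymphocyte markers and 1 of 8 medullary epithelial markers. The summed medullary epithelial signal was 1782 to 1869 in perimedullary cortex and 1146 to 1271 in central cortex, against 17117 to 19957 in whole medulla. Among cortical epithelial, double positive thymocyte and granulocyte markers, 0 of 7, 0 of 4 and 0 of 6 were called. The part of these cells in the Ccl8 and Ccl12 results was not tested.

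In whole medulla against whole cortex, 6 of 12 monocyte and macrophage markers were higher and 2 lower, 7 of 9 dendritic cell markers were higher, and 7 of 8 medullary epithelial markers were higher. The list sums were 29359 to 38574 in whole medulla against 9798 to 13672 in whole cortex for monocytes and macrophages, and 22022 to 38924 in whole medulla against 1418 to 1865 in whole cortex for dendritic cells. Fibroblast (7 of 10), endothelial (4 of 7), B cell (2 of 4), innate-like lymphocyte (7 of 10, with 1 lower) and mature thymocyte (4 of 4) markers were higher too. The 4 double positive markers and 3 of 7 cortical epithelial markers were lower. Of the 6 granulocyte and mast cell markers tested, 2 were higher and 2 lower, with a median log2 fold change of -0.11. The higher ones were the eosinophil granule genes Prg2 (2.22) and Epx (1.41). The sum of that list was 3837 to 6323 in whole medulla and 2194 to 19247.5 in whole cortex, and these ranges overlapped. The part of any of these cells in the chemokine differences was not tested.

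The receptors of the CC chemokines were measured alongside. Ccr2, the receptor of Ccl2 and Ccl12, averaged 905 ± 167 in whole medulla and 112 ± 26.5 in whole cortex (SD, n = 7 each), and rose by 2.76 on the log2 scale (adjusted p = 7.0e-15 by limma). Ccr1, a receptor of Ccl5 and Ccl9, averaged 314 ± 49.1 in whole medulla and 35.1 ± 28.8 in whole cortex (SD, n = 7 each), and rose by 2.59. The atypical receptors Ackr1 and Ackr2 were not called, at 0.90 and 0.18. In medullary against cortical thymocytes, Ccr2 rose by 1.88, and Ccr1 was not called at 0.19. In perimedullary against central cortex, 0 of these 4 receptors were called, Ccr2 at 0.69 and Ccr1 at 0.90 included.

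Of 20 other chemokines tested, 12 were higher and 2 lower in whole medulla than in whole cortex. Among them the signal of Cxcl11 rose by 2.09 on the log2 scale. It averaged 465 ± 78.6 in whole medulla and 104 ± 68.5 in whole cortex (SD, n = 7 each). The lower ones were Cxcl12 at -3.13 and Ccl25 at -2.40, both known as cortical chemokines of the thymus. At the perimedullary border the CCR4 ligands Ccl22 and Ccl17 were the 2 of these 20 called higher, at 1.54 and 1.40 against central cortex.

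Interferon genes were read beside the CXCR3 ligands. Of 12 interferon-gamma pathway genes tested, 6 were higher and 1, the receptor chain Ifngr1, was lower in whole medulla than in whole cortex. In medullary against cortical thymocytes the counts were likewise 6 higher and 1 lower, and in perimedullary against central cortex 0 were called. Of 12 type I interferon genes, 8 were higher in whole medulla than in whole cortex, 8 in medullary than in cortical thymocytes, and 6 in perimedullary than in central cortex. Rsad2, an antiviral interferon-induced gene, rose by 1.79 at that border, where Cxcl10 differed by -0.05. Of 8 genes of the NF-kappaB and tumor necrosis factor list, 4 were higher in whole medulla than in whole cortex, 4 in medullary than in cortical thymocytes, and 0 in perimedullary than in central cortex.

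Across the 7 groups, the order of mean signal put whole medulla highest for every one of the 10 genes. Overlap was judged between neighbours in that order, so a group further along can still reach across a gap. For Ccl5, whole medulla (9283 ± 1085) was followed by medullary thymocytes (259 ± 90.6), perimedullary cortex (229 ± 112), whole cortex (131 ± 70.4), central cortex (96.1 ± 3.08), subcapsular cortex (49.3 ± 12.6) and cortical thymocytes (27.2 ± 18.8). In that order whole medulla stood clear of the next group and central cortex clear of subcapsular cortex, and the other neighbours overlapped. Whole cortex arrays (24.8 to 215) reached across the gap between those 2 subregions. For Cxcr3 the order was whole medulla (499.8 ± 88.1), medullary thymocytes (399.6 ± 135), perimedullary cortex (259.7 ± 23.8), central cortex (168 ± 20.5), whole cortex (151 ± 50.2), subcapsular cortex (142 ± 17.8) and cortical thymocytes (95.2 ± 7.10). Perimedullary cortex did not overlap with central cortex, nor subcapsular cortex with cortical thymocytes, but whole cortex arrays (85.9 to 245) overlapped with both perimedullary cortex and cortical thymocytes.

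For Cxcl10, whole medulla (2305 ± 352) stood clear of central cortex (515 ± 82.2), perimedullary cortex (499.9 ± 104), whole cortex (460.2 ± 138) and subcapsular cortex (393 ± 41.6). Those 4 cortical groups overlapped from neighbour to neighbour and stood clear of medullary thymocytes (133 ± 43.3), which stood clear of cortical thymocytes (27.1 ± 17.1). For Cxcl9, whole medulla (2357 ± 344) was followed without overlap by perimedullary cortex (75.5 ± 33.3), whole cortex (55.5 ± 64.6) and central cortex (43.1 ± 7.59), which overlapped. By this probe set central cortex did not overlap with subcapsular cortex (19.1 ± 13.0), while whole cortex spanned both, and subcapsular cortex overlapped with medullary thymocytes (6.49 ± 0.91), as these did with cortical thymocytes (6.12 ± 2.94). By the other Cxcl9 probe set subcapsular cortex (44.1 ± 19.6) and central cortex (40.8 ± 16.3) overlapped in the opposite order, so their order is uncertain.

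For Ccl8, whole medulla (763 ± 180.5) overlapped with perimedullary cortex (625.2 ± 29.5), which stood clear of whole cortex (178 ± 73.1), and the remaining groups, from central cortex (78.5 ± 26.6) down to cortical thymocytes (49.8 ± 24.5), overlapped as neighbours. For Ccl12, whole medulla (539.5 ± 75.7), perimedullary cortex (202 ± 46.0) and whole cortex (62.8 ± 33.6) did not overlap with each other, and the other groups had means between 5.24 and 17.1. Ccl11 and Ccl9 each had 1 clear gap at the top, below whole medulla (1107 ± 273 for Ccl11, 1546 ± 459 for Ccl9), and Ccl11 another between central cortex (44.6 ± 8.25) and medullary thymocytes (8.28 ± 7.32). For Ccl2 and Ccl7 all neighbours in the order overlapped.

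The genes whose log2 signal followed each chemokine most closely were listed by Pearson's r over the 33 arrays, which share 7 groups, so that r mostly follows group means. For Ccl12 these were Tspan33 (0.94), Ms4a1 (0.94) and Ccl22 (0.94), and for Ccl8 Clec7a (0.91), Tspan33 (0.91) and Ms4a1 (0.91). Tspan33 and Ms4a1 are on both lists, and Ccl8 and Ccl12 correlated with each other at 0.94. For Ccl5 they were Serpinb9 (0.98), Ncf1 (0.97) and S100a4 (0.97), for Ccl9 Insm1, Serpinb2 and Apoa4 (0.97 to 0.98), and for Ccl11 Nupr1, S100a14 and Ogfrl1 (0.98 each). For Cxcl9 they were Clca3a2, Adgb and Mucl2 (0.97 each), for Cxcl10 Cd74 (0.98), Daam1 (0.97) and Sh3bgrl2 (0.96), and for Cxcr3 Nlrc5, Rgs1 and Id2 (0.94 each). Ccl2 had the weakest likeness, with Anxa5, Tnfrsf11a and Rps4l at 0.87 to 0.89. Cxcl9 and Cxcl10 correlated at 0.81.

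As a check across the dissections, the mean of the 3 subregions was set against whole cortex, a comparison also chosen after the values were seen. Of the 9 genes, 0 were called in limma, where 7.25% of all genes tested were called higher and 7.06% lower. The log2 fold change was -0.42 for Ccl12 and -0.06 for Ccl8, and Ccl2 was the 1 gene with an unadjusted p below 0.05. It was at -0.83 (adjusted p = 0.006 by limma), below the fold limit. Without replicate 3 of whole cortex, 1 of the 9 genes was called lower.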

How the data were processed

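Affymetrix arrays were hybridised with labelled RNA from microdissected or sorted mouse thymus, and the authors deposited 1 signal intensity per probe set and array on a linear scale. The submitters' processing notes name Affymetrix Expression Console 1.0 and MAS5, and the settings are not given in the sources used here. Groups came from the array titles. Of 45037 probe sets, 34945 had 1 gene symbol in GEO's platform annotation, 932 had several and 9160 had none. A probe set was kept if its signal exceeded the array median in at least 3 arrays (30045 probe sets, 24883 of them with 1 symbol), and the brightest probe set stood for each of 13463 genes.

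Values were log2(signal + 26.2), the offset being the signals' 25 percentile. limma 3.58.1 in R 4.3.3 (lmFit, then eBayes with trend) was fitted to 7 group means over all 33 arrays with 26 residual degrees of freedom, and p-values were adjusted by Benjamini-Hochberg over all genes tested. Intervals are 95% intervals from that fit. Fold changes on this scale understate those of dim genes. Precision is limited by how many arrays a group has. The script was tested on simulated data.

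The 10 genes, the 16 lists of pathway and marker genes and the tests were chosen with earlier results of these data known. The comparison of the perimedullary with the medullary step and that of the subregion mean with whole cortex were added after the values were seen. Besides the 10 genes, the text names the 3 genes most like each tested one by Pearson's r, and list genes for their known role. Alternatives were other offsets, filters, probe set rules, normalization, array weights, blocks and left-out arrays.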

Additional observations from a re-analysis of the deposited data

Results flagged for a closer look

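In 36 sets of 4 to 10 arrays (9 genes in 4 groups), 2 held an array far from its group on the log2 scale, where chance alone gives such a gap in about 1 in 20 sets. Replicate 3 of whole cortex had the lowest Ccl2 signal, 7.17, with a gap of 0.58 of the group's range to its nearest neighbour, against a critical 0.568. Replicate 1 of medullary thymocytes had the highest Cxcl9 signal, 8.07, with a gap of 0.77 of the range against a critical 0.71. Every Cxcl9 signal in that group lay below the array median.

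For 7 genes the medullary minus cortical log2 difference was larger in tissue than in sorted thymocytes by the interaction term in limma. The excess was 5.17 for Cxcl9, 3.68 for Ccl9, 3.61 for Ccl5, 3.39 for Ccl11, 2.59 for Ccl12, 1.58 for Ccl8 and 1.40 for Ccl2. In this comparison the RNA kit and the sampled material cannot be told apart. Cxcl9 and Ccl11 had passed the filter only through whole medulla.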

How the results depend on the processing

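Alternatives other than leaving out 1 array included some fits on fewer arrays, such as those without bright-tailed arrays. In them, 1041 values of a gene in a comparison kept their direction and side of the threshold. Another 27 lost a call, 8 gained one and 12 changed sign. Of the values with 1 array left out, 1049 kept both, 17 lost a call, 3 gained one and 11 changed sign. Every sign change was of a gene not called. In medullary minus cortical thymocytes, Ccl12 was -0.095 with the bright-tail class as a block and -0.23 without bright-tailed arrays, Ccl11 -0.038 without them, Ccl9 -0.083 with quantile normalization, -0.17 with the mean of its probe sets, -0.072 with array weights and -0.30 without bright-tailed arrays, and Cxcl9 -0.033 with quantile normalization and -0.13 with the block. Cxcr3 in whole medulla minus medullary thymocytes was -0.12 without bright-tailed arrays. The step difference of Ccl12 was -0.49 with 4 times the offset and -0.61 without bright-tailed arrays. The cause was not tested. Leaving out 1 array gave ranges across 0 of -0.015 to 0.29 for Ccl12, -0.024 to 0.15 for Ccl11 and -0.017 to 0.055 for Cxcl9 between thymocytes, -0.045 to 0.21 for Ccl12 and -0.38 to 0.0027 for Ccl8 in subcapsular minus central cortex, -0.18 to 0.13 for Cxcl10 in perimedullary minus central cortex, and -0.060 to 0.26 for the step difference of Ccl12.

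With 4 times the offset, 1 gene in place of 6 was called higher in whole cortex than in cortical thymocytes. With an offset of 6.55, or without replicate 3 of whole cortex, 1 gene in place of 0 was called lower in the subregion mean than in whole cortex. Leaving out each array in turn gave 8 to 9 genes higher in whole medulla than whole cortex, 2 to 3 in perimedullary than central cortex, 3 to 4 in perimedullary than subcapsular cortex, 5 to 7 in whole cortex than cortical thymocytes, and 5 to 6 lower and 0 higher in the step difference. It gave 0 to 1 lower in the subregion mean, and constant counts of 3, 7, 7, 8 and 0 in medullary minus cortical thymocytes, the interaction, whole medulla minus perimedullary cortex, whole medulla minus medullary thymocytes and subcapsular minus central cortex. Replicate numbers did not meet the condition set for pairing arrays, that every pair between 2 groups pass 0.1. Over 77 pairs of groups and numbers, r ran from -0.10 to 0.26 with a median of 0.01 and 5 over 0.1. Of these 5, 4 lay between whole medulla and whole cortex, where 6 of 7 pairs were positive (-0.03 to 0.26). The highest, 0.253 and 0.257, were replicates 6 and 7, the arrays of these 2 groups that were not bright-tailed. With the replicate block, 9 genes were higher in whole medulla than in whole cortex and 3 in perimedullary than in central cortex, and no member count changed.

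Counts over all genes depended on the filter, the offset, the weights, the probe set rule, the block and the arrays used. Genes higher in whole medulla than in whole cortex numbered 2511, and 1368 under a stricter filter. To pass it, 7 or more arrays had to exceed their own median, and some array its own 75 percentile. The same filter gave 1233 in place of 2622 against medullary thymocytes, 1509 in place of 2721 against perimedullary cortex, 882 in place of 1723 for the interaction and 1032 in place of 1747 lower for the step difference. With 4 times the offset, 108 in place of 181 were higher in perimedullary than central cortex, 230 in place of 396 in perimedullary than subcapsular cortex, 675 in place of 1035 in medullary than cortical thymocytes, 621 in place of 1298 in whole cortex than cortical thymocytes, and 61 in place of 118 in subcapsular than central cortex. It also gave 616 in place of 951 lower in the subregion mean than whole cortex, 136 in place of 224 in perimedullary than subcapsular cortex and 155 in place of 299 for the interaction. Genes lower in whole cortex than cortical thymocytes numbered 205, but 44 without bright-tailed arrays and 373 with the replicate block. The mean of probe sets gave 481 in place of 976 higher in the subregion mean than whole cortex, and 719 in place of 1224 lower in whole medulla than perimedullary cortex. Genes lower in whole medulla than medullary thymocytes numbered 166, with a range of 104 to 334, those lower in subcapsular than central cortex 60 (29 to 95), and those lower in perimedullary than central cortex 5 (1 to 10). Quantile normalization gave 2120 higher and 1521 lower in whole medulla than perimedullary cortex, in place of 2721 and 1224, and moved the all-gene median of whole medulla minus whole cortex to -0.02, in place of 0.11 (log2). Thymocyte signals of Cxcl9, and every Ccl7 signal outside whole medulla, lay below the array median.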
